A study of Mus musculus with 6 samples.

Results

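The genes described here form the interferon response list, 32 genes listed by symbol, in type 2 innate lymphoid cells (ILC2s) of the mouse lung. A gene was taken where its symbol matched a gene name of the table of estimated counts. This gave 24 of the 32 genes, in a table of 18478. The other 8 (Ifit1, Ifit3, Ifit3b, Oas2, Oasl1, Mx1, Mx2 and Ifi44) were not analysed here, so the IFIT family is represented by 1 gene and the MX family by none. The cells came from BALB/c mice of 6 weeks that had received 3 intranasal doses of 1 µg IL-33. After sorting, culture lasted 24 h in IL-2 and in IL-7, both used at 10 ng/mL. WT cells were compared with cells labelled CB2 KO, a knockout of the cannabinoid receptor encoded by Cnr2, with 3 libraries in each group. The labels name no interferon among the agents, do not describe the knockout allele, and leave unsaid whether the libraries of a group are separate mice; the tests below measure the spread between libraries only, which may be technical.

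Interferons are secreted proteins that bind receptors on the cell surface and, through Janus kinases, activate STAT factors. A complex that contains STAT2 and IRF9 enters the nucleus and reads the interferon-stimulated response element (ISRE), while the main arm of interferon-gamma acts through the gamma-activated site (GAS). The induced genes block viral translation, degrade viral RNA, trap particles at the membrane and attack vacuoles, and some of them encode the RNA and nucleic acid sensors that start the response. In ILC2s, interferons are known as restraints on type 2 cytokine production and expansion.

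Promoter sequences are shown because the response described above acts through these elements, although the list itself was given by gene symbol. RefSeq windows on GRCm38.p6 (the mm10 build of the count table) were found for 19 of the 24 genes. Each window runs from 250 bases before an annotated start to 50 after it, 300 bases in all. The ISRE core was searched as GAAANNGAAA, which reads TTTCNNTTTC on the other strand, and GAS as TTCNNNGAA, which reads the same on both strands. Some genes had several windows (25 for the 19 genes), and a gene was counted where any of its windows held a match. An ISRE core was present for 12 of the 19 genes, against 3.99% of all 27025 genes with a window, and a GAS for 7 of the 19, against 9.55%. A match is a run of letters and does not show a bound site. In the stretches below, which are printed 5′ to 3′ on the strand of the gene, capitals mark the ISRE core, or the GAS in Isg20. Ifih1, Ddx58 and Isg20 come first because their groups did not overlap in expression; the others show the spacing in the OAS, ISG15 and GBP genes.
Ifih1 (chr2:62646206-62646235, minus strand): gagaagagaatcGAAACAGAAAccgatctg
Ddx58 (chr4:40239801-40239875, minus strand): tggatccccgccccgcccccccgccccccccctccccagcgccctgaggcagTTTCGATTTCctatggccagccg
Isg20 (chr7:78913318-78913392, plus strand): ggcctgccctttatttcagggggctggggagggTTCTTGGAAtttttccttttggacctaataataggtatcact
Isg15 (chr4:156200844-156200918, minus strand): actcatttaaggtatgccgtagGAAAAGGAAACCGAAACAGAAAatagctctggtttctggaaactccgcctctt
Oas1a (chr5:120907526-120907600, minus strand): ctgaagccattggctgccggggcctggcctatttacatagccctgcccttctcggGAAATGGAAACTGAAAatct
Oas3 (chr5:120777685-120777759, minus strand): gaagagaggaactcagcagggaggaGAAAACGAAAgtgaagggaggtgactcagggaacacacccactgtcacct
Gbp2 (chr3:142620583-142620657, plus strand): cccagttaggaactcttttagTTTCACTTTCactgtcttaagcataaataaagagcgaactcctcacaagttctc
Gbp5 (chr3:142496744-142496818, plus strand): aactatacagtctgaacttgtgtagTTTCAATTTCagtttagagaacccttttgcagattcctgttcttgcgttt
Isg15 holds 3 overlapping ISRE cores and Oas1a 2. In Ddx58 and Ifih1 the core lies just after the annotated start, at positions 3 to 12 and 33 to 42, whereas in the other genes printed with an ISRE it lies before the start of its window's transcript. For Gbp5 that start is an internal one: the gene begins at 142493978 on the plus strand, and the printed stretch lies inside it. Gbp2 begins at 142620602, within its printed stretch and just before the core, so that core also lies inside the gene. Bst2 was the 1 gene in which an ISRE core and a GAS overlapped. Neither motif was found in these windows for Oasl2, Irf7, Irf9 and Xaf1.

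**Figure D1:**
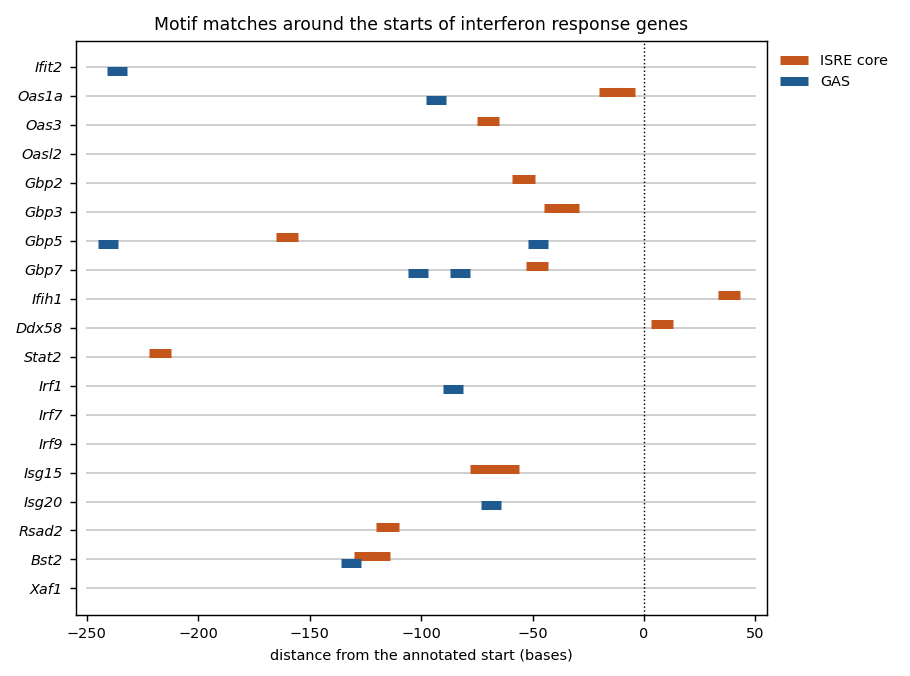
Positions of ISRE cores (orange) and GAS matches (blue) in the windows of the 19 genes, with distance in bases from the annotated RefSeq start on the horizontal axis and 1 gene per row. Most ISRE cores sit before the dotted line at the start, while those of Ifih1 and Ddx58 sit after it.

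The libraries held 17141698 to 21621008 estimated counts. On a first principal component that held 37.6% of the variance, the library labelled CB2 KO replicate 1 lay far from the others. Of the 24 interferon response genes, 9 were at 0 in it, against 0 to 4 in the other libraries. This library also had more zeros in general: among 4245 genes with a mean count of 10 to 100, it listed 28.3% at 0, against 12.2 to 21.8% elsewhere. Of the 8 interferon response genes in that range, 7 were at 0 in it, against 0 to 3 elsewhere. Cnr2, the targeted gene, was at 9.30, 17.3 and 15.8 CPM (counts scaled to library size) in WT replicates 1 to 3 and at 9.23, 1.60 and 3.83 CPM in the libraries labelled CB2 KO replicates 1 to 3, the first of which matched WT replicate 1. All 12 ILC2 markers of the marker list had values, and their summed level was 13957 to 15181 CPM over the WT libraries and 14136 to 16592 CPM over the CB2 KO libraries. The sum was carried by Il5, which alone made up 6962 to 7859 CPM in WT and 7875 to 9998 CPM in CB2 KO. By gene, 7 of the 12 ILC2 markers (Gata3, Id2, Il7r, Il2ra, Klrg1, Icos and Thy1) were lower in CB2 KO without overlap, 58.3% against 7.21% of all tested genes, and Il5 was higher without overlap. None of the 12 passed the adjusted threshold, and their median log2 difference was -0.17. The part of these ILC2 marker levels in the values below was not tested.

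Of the 24 genes, 22 passed the filter on low counts, and 0 of them passed the test between CB2 KO and WT (edgeR's quasi-likelihood test, Benjamini-Hochberg adjusted over 14084 genes, threshold 0.05). Over all tested genes 15 passed, or 0.107%. At an unadjusted p under 0.05 in edgeR's test there were 3 of 22, or 13.6%, beside 8.6% of all tested genes in either direction. All 3 were lower in CB2 KO, the direction of 4.27% of all tested genes at that p. The same 3, Ifih1, Ddx58 and Isg20, were those whose groups did not overlap. That was 13.6% of the 22 genes, against the 7.21% of all tested genes, and 0 of the 22 were without overlap in the higher direction, against 6.87%. Limma-voom, and limma on the authors' normalized signal, called 0 of the 22, and DESeq2 called 1 (Ifih1), with 2.58% of all genes called by DESeq2. The median log2 difference (CB2 KO minus WT) of the 22 genes was -0.18, beside 0.00 over all tested genes, with 12 negative and 10 positive. Among the 15 with a mean count of at least 100 the median was 0.07, with 7 negative and 8 positive. In sorted bulk cells, fewer cells carrying a transcript and less of it per cell cannot be told apart.

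**Figure D2:**
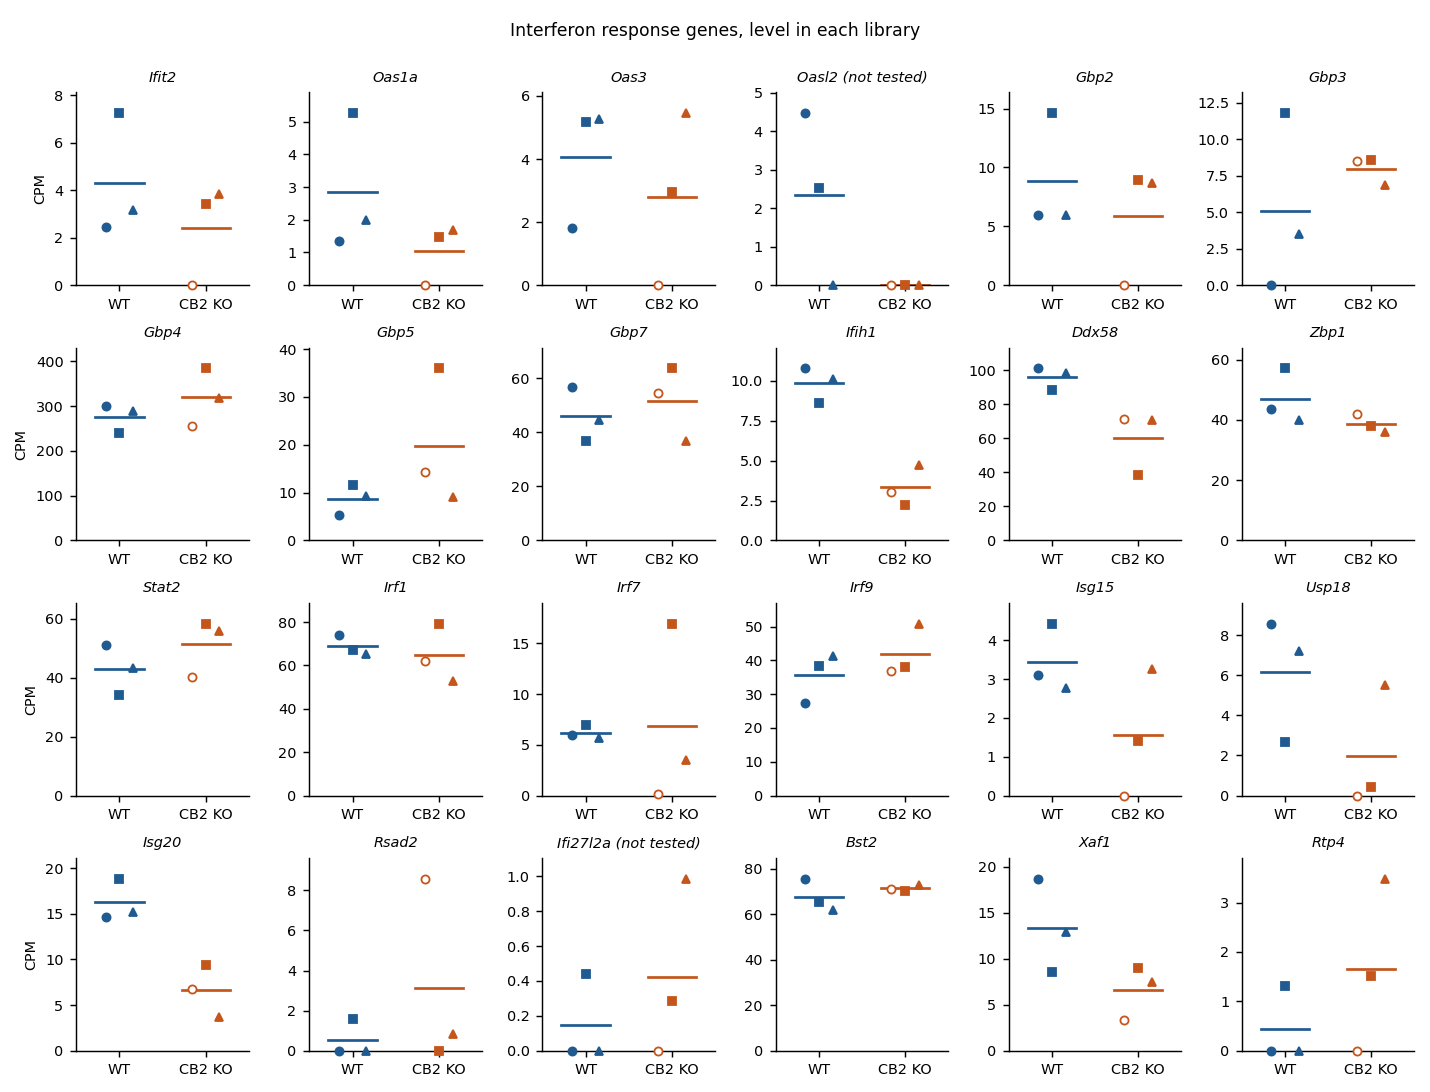
Level of each of the 24 genes in CPM (vertical axes, linear from 0, own scale per gene) in WT (blue) and CB2 KO (orange) libraries, with circles, squares and triangles for replicates 1, 2 and 3, the open circle for the library labelled CB2 KO replicate 1, and lines for group means. The groups are apart only for Ifih1, Ddx58 and Isg20, and the open circle is at 0 in 9 panels.

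Of the 3 sensors of viral nucleic acid, Ifih1 and Ddx58 were lower in every CB2 KO library than in any WT library, although neither passed the threshold. Ifih1 (chromosome 2, 62595798 to 62646255, minus strand) encodes MDA5, a helicase that detects long double-stranded RNA. It was at 10.8, 8.62 and 10.1 CPM in WT replicates 1 to 3 and at 3.03, 2.21 and 4.76 CPM in CB2 KO replicates 1 to 3. Every CB2 KO library was below every WT library, and within CB2 KO the level ran from 2.21 CPM in replicate 2 to 4.76 CPM in replicate 3. The group means were 9.84 ± 1.11 and 3.33 ± 1.30 CPM (SD, n = 3 each), 66.1% lower in CB2 KO. The log2 difference was -1.60 (SE 0.42), with an unadjusted p of 0.00549 and an adjusted p of 0.357 in edgeR's test. With 1 library left out it ran from -1.91 (without CB2 KO replicate 3) to -1.36 (without CB2 KO replicate 2). These levels rest on 232, 177 and 179 counts in WT and 61, 47 and 82 in CB2 KO. DESeq2 gave Ifih1 an adjusted p of 0.0191, the 1 call among 345 values that the alternative fits gave for these genes; the adjusted p for Ifih1 ran from 0.0191 to 0.632 over its 16 alternatives.

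Ddx58 (chromosome 4, 40203773 to 40239828, minus strand) encodes RIG-I, the related helicase that detects RNA with a free triphosphate end. Its level was 101.1, 88.6 and 98.2 CPM in WT and 71.6, 38.6 and 70.9 CPM in CB2 KO. The groups did not overlap, and CB2 KO replicate 2 was well below the other CB2 KO libraries. The means of 95.95 ± 6.55 and 60.3 ± 18.8 CPM (SD, n = 3 each) differ by -0.69 on the log2 scale (SE 0.23), with an unadjusted p of 0.0196 and an adjusted p of 0.47 in edgeR's test. Without CB2 KO replicate 2 the log2 difference was -0.43; leaving out the library labelled CB2 KO replicate 1 gave -0.84. Zbp1, which encodes a sensor of Z-form nucleic acid that can start necroptosis, was at 43.6, 57.1 and 40.0 CPM in WT and 42.0, 38.1 and 36.1 CPM in CB2 KO. Its groups overlapped, and the log2 difference was -0.28 (SE 0.20; adjusted p = 0.764 in edgeR's test). Scaled to the length of its exons, the mean level over all libraries was 12.1 CPM per kb for Zbp1, 11.1 for Ddx58 and 0.81 for Ifih1, so Ifih1 was by far the scarcest of these sensors, with neighbouring values for the other two.

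The STAT and IRF genes encode transcription factors of the response, and none of the 4 passed the test (adjusted p of at least 0.819 in edgeR's test). Irf1, a transcription factor strongly induced by interferon-gamma, had the highest level per length of the 4, at 16.8 CPM per kb. It was at 73.97, 67.0 and 65.3 CPM in WT and 62.1, 79.3 and 53.0 CPM in CB2 KO, and the CB2 KO libraries lay on both sides of the WT libraries. Stat2, a subunit of the ISRE-binding complex, was at 51.0, 34.1 and 43.2 CPM in WT and 40.1, 58.4 and 55.8 CPM in CB2 KO. Irf9, the DNA-binding subunit of the same complex, was at 27.5, 38.3 and 41.3 CPM in WT and 36.7, 38.1 and 50.9 CPM in CB2 KO. Both had a positive log2 difference, 0.26 (SE 0.23) for Stat2 and 0.23 (SE 0.24) for Irf9, about as large as its own error. In the annotation exons of Irf9 overlap Rnf31, and those of Irf7 overlap Phrf1 and those of Irf1 overlap Gm17334, so their counts may hold reads of the overlapping gene.

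Irf7, the factor that amplifies type I interferon production, was the most uneven of the 4. Its 3 WT libraries were close together, at 5.95, 6.96 and 5.65 CPM. The CB2 KO libraries held 0.20, 16.96 and 3.54 CPM, from 4, 360 and 61 counts, so both the lowest and the highest library were in this group. Its log2 difference of 0.22 (SE 0.89) turned to -1.83 without CB2 KO replicate 2, and was 0.81 when the library labelled CB2 KO replicate 1 was left out.

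Ifit2 represents the IFIT family, whose proteins bind foreign RNA and the translation machinery. It was at 2.47, 7.26 and 3.17 CPM in WT and at 0, 3.44 and 3.83 CPM in CB2 KO. WT replicate 2 was the highest library, the remaining WT libraries lay below both detected CB2 KO libraries, and the 0 belonged to the library labelled CB2 KO replicate 1. A count of 0 there allows up to 0.149 CPM (3 counts), counting error only. The log2 difference was -0.86 (SE 0.83; adjusted p = 0.832 in edgeR's test). It was -0.25 when that library was left out, -0.23 without WT replicate 2, and -1.29 without CB2 KO replicate 2 or without CB2 KO replicate 3.

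The OAS genes encode enzymes and relatives that sense double-stranded RNA and, in the active members, switch on RNase L. All 3 analysed were scarce, with no library above 5.46 CPM. Oas1a, the highest of the 3 per length at 1.04 CPM per kb, was at 1.35, 5.26 and 1.98 CPM in WT and 0, 1.46 and 1.68 CPM in CB2 KO. Oas3 was at 1.81, 5.16 and 5.26 CPM in WT and 0, 2.97 and 5.46 CPM in CB2 KO. Both overlapped between groups and shared the 0 in the library labelled CB2 KO replicate 1; their log2 differences were -1.49 (SE 0.92) and -0.57 (SE 0.85), with adjusted p of 0.692 and 0.904 in edgeR's test. Without that library they were -0.88 and 0.04, and without CB2 KO replicate 3 they were -1.93 and -1.39. Oasl2, an OAS-like gene, did not pass the filter. It had 96, 52 and 0 counts in WT and 0 in each CB2 KO library, so the groups share the value 0.

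Isg15, a ubiquitin-like modifier, and Usp18, the protease that removes it and also damps the interferon receptor, form the ISG15 system. Isg15 was at 3.12, 4.43 and 2.77 CPM in WT and 0, 1.41 and 3.25 CPM in CB2 KO. Usp18 was at 8.58, 2.68 and 7.19 CPM in WT and 0, 0.42 and 5.49 CPM in CB2 KO. In both genes replicates 1 and 2 of CB2 KO were below every WT library and replicate 3 was within the WT range. The log2 differences were -1.24 (SE 0.84) and -1.78 (SE 1.02), with adjusted p of 0.73 and 0.679 in edgeR's test. Leaving out the library labelled CB2 KO replicate 1 gave -0.63 and -1.17, whereas leaving out CB2 KO replicate 3 gave -2.25 and -4.78. Isg15 lies on chromosome 4 (156199455 to 156200796, minus strand), the chromosome of Ddx58 (40203773 to 40239828) and of Cnr2. Whether this position has a part in the values was not tested. Exons of Usp18 overlap the noncoding gene Gm44148 in the annotation.

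The guanylate-binding proteins are large GTPases that coat vacuoles and bacteria and are induced most strongly by interferon-gamma. Gbp4 was the most abundant of the 5, at 39.8 CPM per kb, and had the highest CPM of the whole list. It was at 300.4, 239.1 and 289.3 CPM in WT and 256, 384 and 319 CPM in CB2 KO, with a log2 difference of 0.22 (SE 0.16; adjusted p = 0.774 in edgeR's test). The CB2 KO libraries reached above the WT range but also lay inside it. Gbp4 shares exons with Gbp8 and Gbp9 in the annotation, and its count was not whole in all 6 libraries, so its reads were partly shared out between genes.

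Gbp5, which also promotes inflammasome assembly, was at 5.30, 11.6 and 9.38 CPM in WT and 14.2, 36.0 and 9.17 CPM in CB2 KO. CB2 KO replicate 2 was far above the rest, while replicate 3 was within the WT range. The log2 difference of 1.24 (SE 0.61; adjusted p = 0.632 in edgeR's test) was 0.45 without CB2 KO replicate 2. Gbp7 was at 56.8, 36.9 and 44.5 CPM in WT and 54.4, 63.6 and 36.8 CPM in CB2 KO, so the WT range lay inside the CB2 KO range. Gbp2 was at 6.00, 14.6 and 5.94 CPM in WT and 0, 8.95 and 8.71 CPM in CB2 KO, and Gbp3 at 0, 11.8 and 3.496 CPM in WT and 8.53, 8.59 and 6.86 CPM in CB2 KO. Each of these last genes had a 0 in 1 library, in opposite groups, and their log2 differences of -0.62 (SE 0.78) and 0.66 (SE 0.80) were smaller than their errors. With the library labelled CB2 KO replicate 1 left out Gbp2 gave -0.014, and Gbp3 gave 0.016 without WT replicate 1 and 2.34 without WT replicate 2.

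**Figure D3:**
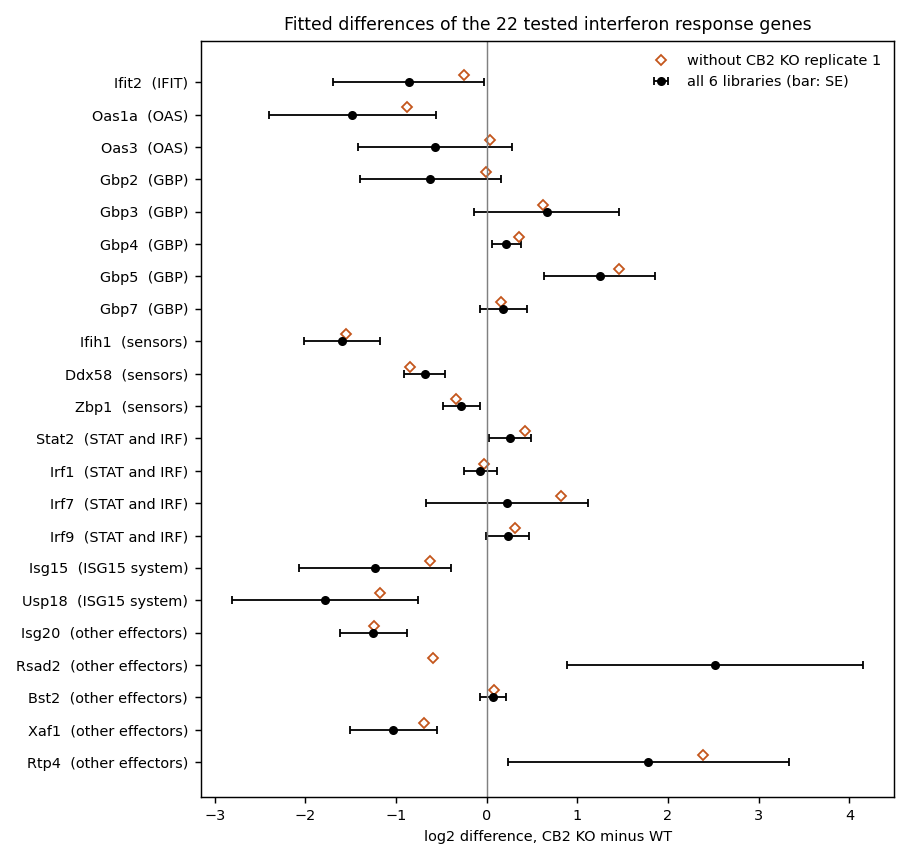
Fitted log2 difference (CB2 KO minus WT, horizontal axis) of the 22 tested genes with all 6 libraries (black, bars are SE) and with the library labelled CB2 KO replicate 1 left out (open diamonds, no error drawn), grouped by role. The sensors lie left of 0 in both fits, and Rsad2 moves from 2.52 to -0.59.

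Among the other effectors, Isg20 (chromosome 7, 78913424 to 78920396, plus strand) had the clearest separation. It encodes an exonuclease that degrades single-stranded RNA. Isg20 was at 14.7, 18.8 and 15.2 CPM in WT and 6.80, 9.42 and 3.71 CPM in CB2 KO. The lowest WT library was above the highest CB2 KO library. The means were 16.3 ± 2.26 and 6.64 ± 2.86 CPM (SD, n = 3 each), 59.1% lower in CB2 KO, a log2 difference of -1.25 (SE 0.37) with an unadjusted p of 0.0114 and an adjusted p of 0.446 in edgeR's test. Xaf1, a proapoptotic gene, was at 18.7, 8.57 and 12.9 CPM in WT and 3.32, 9.04 and 7.43 CPM in CB2 KO, and CB2 KO replicate 2 was just above the lowest WT library. Its log2 difference was -1.03 (SE 0.48; adjusted p = 0.62 in edgeR's test).

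Bst2, which encodes tetherin, a membrane protein that holds budding virions, was the most abundant gene of the list per length, at 77.1 CPM per kb. It was at 75.7, 65.5 and 61.8 CPM in WT and 71.2, 70.2 and 73.1 CPM in CB2 KO. The CB2 KO libraries lay within the WT range, and the log2 difference was 0.07 (SE 0.14). Rsad2, the gene of the antiviral enzyme viperin, was detected in 3 libraries only: 33 counts in WT replicate 2, 14 in CB2 KO replicate 3 and 173 in the library labelled CB2 KO replicate 1. Its log2 difference of 2.52 (SE 1.63) therefore rests on 1 library and was -0.59 without it. Rtp4 had 0, 27 and 0 counts in WT and 0, 32 and 60 in CB2 KO, and Ifi27l2a, which did not pass the filter, 0, 9 and 0 against 0, 6 and 17.

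The libraries with the highest and the lowest value differed from gene to gene. Over the 22 tested genes, the library labelled CB2 KO replicate 1 was alone at the lowest value in 8, among them Ifit2, Oas1a, Oas3, Isg15 and Usp18, and the highest in 1. CB2 KO replicate 2 was the highest in 6, which were Gbp4, Gbp5, Gbp7, Stat2, Irf1 and Irf7, and the lowest in 2, which were Ifih1 and Ddx58. WT replicate 2 was the highest in 7, among them Ifit2, Oas1a, Gbp2 and Isg15. With the library labelled CB2 KO replicate 1 left out, 4 of the 22 genes were without overlap in the lower direction (Ifih1, Ddx58, Zbp1 and Isg20), where 11.9% of all tested genes were, and 3 in the higher direction (Gbp4, Stat2 and Rtp4), where 12.2% were. None of the 22 passed the threshold in that fit.

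**Figure D4:**
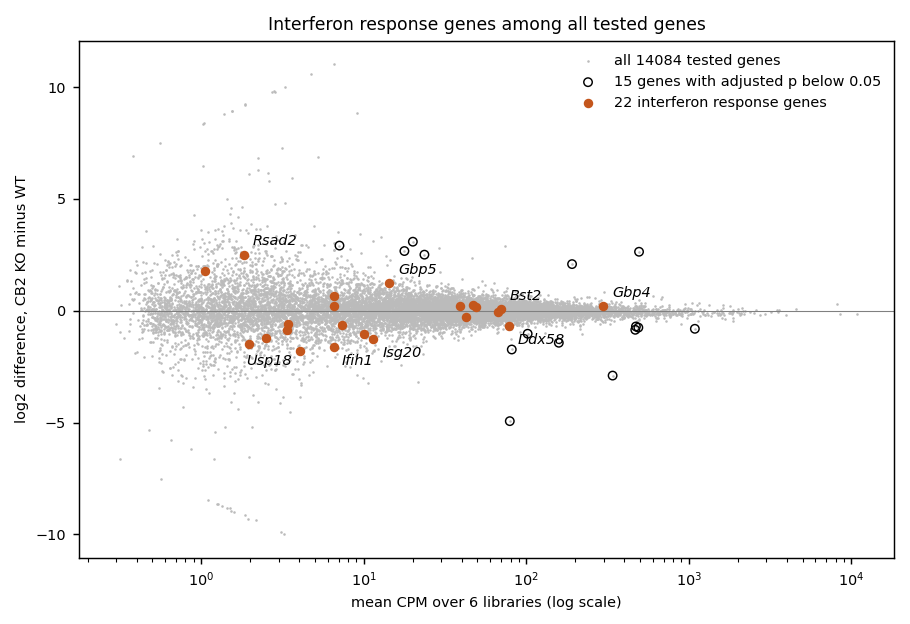
Log2 difference (CB2 KO minus WT, vertical axis) against mean CPM over 6 libraries (horizontal log axis) for all 14084 tested genes (grey), the 15 genes past the threshold (open circles) and the 22 interferon response genes (orange). The interferon response genes lie inside the grey cloud at their level, and 0 of them carries a circle.

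Other genes of the pathway were taken from lists of 113 genes, of which 95 had values and 88 were tested. None passed (0 of 88 in edgeR's test). At an unadjusted p under 0.05 there were 7, or 7.95%, beside 8.6% of all tested genes. Their log2 differences were positive in 36 and negative in 52, with a median of -0.07; over all tested genes 7037 were positive and 7047 negative. The interferon genes themselves, 9 in the list, were not analysed here. Of 9 receptor and kinase genes listed, 8 had values. Ifnar1 was at 79.1 ± 15.9 CPM in the WT group against 68.2 ± 18.1 CPM in the CB2 KO group, and Ifnar2 at 66.2 ± 9.49 and 59.4 ± 8.997 CPM (SD, n = 3 each). For the interferon-gamma receptor, Ifngr1 was at 113.5 ± 7.68 and 100.4 ± 31.5 CPM and Ifngr2 at 50.8 ± 3.32 and 48.3 ± 12.7 CPM. For these 4 receptor genes and for Il10rb, a receptor chain shared with interleukin-10, the groups overlapped, with adjusted p of at least 0.861 in edgeR's test. Of the Janus kinases, Jak2 was higher in CB2 KO without overlap, with a log2 difference of 0.34 (SE 0.12; adjusted p = 0.511 in edgeR's test), and Jak1 and Tyk2 overlapped; the kinases and Il10rb were chosen after their values were seen.

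Of the adaptors and sensors outside the list, 11 were tested and 9 had a positive log2 difference. The other pathway lists with tested genes had more negative than positive values. Negative were 7 of 8 receptor and kinase genes, 4 of 6 further STAT and IRF genes, 5 of 5 negative regulators and 34 of 58 further interferon-stimulated genes. Of the 11, 4 (Mavs, Sting1, Myd88 and Aim2) were higher in CB2 KO without overlap, where 6.87% of all tested genes were, and 0 had an unadjusted p under 0.05. Mavs, the mitochondrial adaptor through which both RIG-I and MDA5 signal, was chosen after its values were seen. It was at 29.4, 44.4 and 46.6 CPM in WT and 66.5, 53.7 and 47.9 CPM in CB2 KO, so its groups did not overlap and were ordered opposite to those of Ifih1 and Ddx58. For Mavs the log2 difference was 0.50 (SE 0.23; adjusted p = 0.617 in edgeR's test). Dhx58, the gene of the third RIG-I-like helicase, LGP2, had 84.9, 133.9 and 5 counts in WT and 0, 152 and 105 in CB2 KO, without a separation of groups; it was also chosen after its values were seen.

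Among 58 tested further interferon-stimulated genes, 2 (Ly6e and Oas1c) had an unadjusted p under 0.01, or 3.45%, beside 2.24% of all tested genes. These 2 were also the genes lower in CB2 KO without overlap, where 7.21% of all tested genes were. In the higher direction 3 were without overlap, where 6.87% of all tested genes were. They were Nlrc5, Slfn2 and Shisa5, with log2 differences of 0.41, 0.22 and 0.17, named after their values were seen. Ly6e, which encodes a surface protein, was at 1819, 1859 and 1718 CPM in WT and 1415, 1397 and 1443 CPM in CB2 KO. Its groups did not overlap, and the log2 difference was -0.34 (SE 0.05; adjusted p = 0.0638 in edgeR's test). Oas1c, a relative of Oas1a, had 84.5, 44 and 100 counts in WT and 0, 0 and 2 in CB2 KO (adjusted p = 0.35 in edgeR's test). The OAS1 genes are close copies of each other, so counts of single copies are uncertain.

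Transcripts listed as markers of other cell types were also present. Whether they came from other cells or from the sorted ILC2s was not tested. Of 9 macrophage and monocyte markers, 6 had values, and their sum was 12.1 to 59.1 CPM over the WT libraries and 153.8 to 170.6 CPM over the CB2 KO libraries; of these, C1qb was detected only in CB2 KO replicate 3. Most of the macrophage sum in CB2 KO was Chil3, at 0.56, 8.67 and 47.4 CPM in WT and 142.6, 107.4 and 134.3 CPM in CB2 KO. Lyz2 was also higher in CB2 KO without overlap, whereas Cd68, at 10.4, 6.57 and 9.10 CPM in WT and 9.57, 12.7 and 6.56 CPM in CB2 KO, overlapped. Of 7 mast cell and basophil markers, 6 had values, with sums of 17.5 to 28.3 and 41.4 to 86.7 CPM. The T cell markers, 4 of 6 with values, summed to 10.9 to 17.4 and 26.3 to 31.3 CPM. Most of the T cell sum was Cd3g, at 9.58, 17.2 and 15.0 CPM in WT and 25.5, 28.8 and 23.9 CPM in CB2 KO. For plasmacytoid dendritic cells, which make large amounts of interferon, 2 of 6 markers had values (Ccr9 and Tcf4), with sums of 0.51 to 13.6 and 7.30 to 21.2 CPM. Other lists reached higher in WT. Conventional dendritic cell markers, 4 of 6 with values, summed to 42.5 to 83.5 CPM in WT and 35.5 to 47.3 CPM in CB2 KO. Most of this sum was Xcr1 in every library. Xcr1 was lower in CB2 KO without overlap, at 79.7, 40.4 and 52.4 against 20.04, 36.4 and 36.5 CPM, the direction of Ifih1, Ddx58 and Isg20. The other tested markers of this list went the other way. Itgax was higher in CB2 KO without overlap (log2 difference 2.80), and Zbtb46 overlapped, with a log2 difference of 1.78. Flt3 was detected only in CB2 KO replicate 3. Epithelial and endothelial markers, 5 of 6 with values, summed to 50.6 to 153.98 CPM in WT and 47.4 to 62.8 CPM in CB2 KO. NK cell and ILC1 markers, 2 of 6 with values, summed to 10.8, 0 and 0 CPM in WT and 0, 2.12 and 0 CPM in CB2 KO. The sums of B cell markers, 2 of 5 with values, overlapped, and 0 of 5 neutrophil markers had values. The part of other cells in the values above was not tested.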

How the data were processed

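RNA of sorted mouse lung ILC2s was sequenced, 3 samples each for WT and CB2 KO, as the titles name and number them. Libraries were made from 10 ng of RNA, per the labels' protocols. The authors deposited estimated counts per gene (Partek expectation-maximization, per the file headers and names), which need not be whole because reads that fit several genes are shared out; 41.7 to 44.4% of values per library lay over 0.01 from a whole number. They also deposited a normalized signal, which equals (estimated count + 1) over a constant for each library. Partek, CASAVA (1.8.2), STAR (listed as 3.5.3) and mm10 are named, per the submitters' processing notes. For the strand setting, the sources used here say nothing.

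Estimated counts were rounded and tested over the whole table with edgeR 4.0.16 in R 4.3.3 (TMM, filterByExpr, glmQLFit, robust=TRUE, legacy=FALSE, then glmQLFTest, Benjamini-Hochberg adjustment); 14084 genes were tested and 4394 removed. The workflow was tested on simulated data, drawn with the same spread per gene in all libraries. The simulation held no library like CB2 KO replicate 1, so it does not bear on the effect of that library. The SE is the log2 difference divided by the root of F. CPM use TMM-scaled library sizes, and a count of 0 allows 0.14 to 0.174 CPM (3 counts, counting error only). Levels per length use the union of GENCODE M21 exons. Coordinates are those of the table on mm10, with ends as GENCODE counts them. The alternatives were other normalizations, filters and tools (DESeq2 1.42.0, limma 3.58.1), a replicate block, and leaving out each library.

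The genes and lists were chosen with earlier results of these data known. Values per library are given for genes with an unadjusted p under 0.05, without overlap of groups, or with the highest level per length in their role, and for most others of the list. The rule also names Cnr2, the receptor genes, and pathway genes with an unadjusted p under 0.01; 1 further gene it names is not reported here. Of the pathway symbols, Sting1 and Cgas were matched through newer names.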

Additional observations from a re-analysis of the deposited data

How the results depend on the processing

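Of 14084 genes, 15 passed the threshold. Other normalizations, no filter, limma-voom, limma on the authors' signal and legacy=TRUE gave 13 to 17. DESeq2 gave 363, a mean count of at least 100 gave 35, the replicate block gave 3, and leaving out 1 library gave 3 to 8. The count among interferon response genes was 0 in 15 of 16 alternatives and 1 with DESeq2 (Ifih1). Their median of -0.18 was -0.51 with limma-voom and with limma on the authors' signal, 0.069 over the 15 genes whose mean count reaches 100, and -0.43 to -0.035 when 1 library was left out (lowest without CB2 KO replicate 2). For 17 of 22 genes no alternative turned the direction. It turned for Irf7 with limma-voom (-1.35) and with limma on the authors' signal (-1.34), and for 5 genes when 1 library was left out: Gbp7 (-0.0029 to 0.37, lowest without CB2 KO replicate 2), Irf1 (-0.25 to 0.039, highest without CB2 KO replicate 3), Irf7 (-1.83 to 0.81, lowest without CB2 KO replicate 2), Oas3 (-1.39 to 0.037, highest without CB2 KO replicate 1) and Rsad2 (-0.59 to 8.97, lowest without CB2 KO replicate 1, and highest in a fit whose WT libraries are all at 0, where the value is no measure of size); the cause was not tested. The count of 3 genes without overlap in the lower direction was 4 without CB2 KO replicate 1, an alternative chosen after seeing the data. The replicate numbers of the titles share only a number: same-numbered samples had correlations of deviations of 0.07, 0.03 and 0.02, and the replicate block changed no call among the 22 genes. Many of the scarcer genes rest on few counts, and several on zeros in 1 or more libraries, which limits their precision.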
